A study of Mus musculus with 12 samples.

Results

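The AP-1 and early growth response (EGR) transcription factor genes are described here in HT22 cells, an immortalised mouse hippocampal neuronal line, after depletion of NCOA4 by siRNA, iron restriction with the chelator deferoxamine (DFO), or both. The members were chosen by name: the 4 Fos family genes Fos, Fosb, Fosl1 and Fosl2, the 3 Jun family genes Jun, Junb and Jund, and the 3 EGR genes Egr1, Egr2 and Egr3, which make 10 of the 24343 genes listed. Total RNA was sequenced in 12 libraries, with 3 biological replicates in each of 4 groups: control siRNA at normal iron (siControl), Ncoa4 siRNA at normal iron (siNCOA4), control siRNA with DFO (siControl+DFO) and Ncoa4 siRNA with DFO (siNCOA4+DFO). All cells were transfected with liposomes, and DFO was given at 100 µM for 24 h. The labels do not say whether the replicates were separate cultures, so p-values measure the spread between these libraries. The study asked how NCOA4, the receptor that carries ferritin to the lysosome so that its iron is released, shapes the response of neuronal cells to iron deficiency.

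AP-1 is a dimer of leucine zipper proteins. A Jun protein pairs with another Jun protein or with a Fos protein, whereas Fos proteins do not form stable dimers among themselves. Fos and Egr1 are immediate-early genes, whose transcription is raised within minutes of growth factor, stress or synaptic signals through mitogen-activated protein (MAP) kinases, serum response factor and CREB, without new protein synthesis, and is usually shut off within hours. In hippocampal neurons, Fos and Egr1 mRNA are widely used as marks of recent activity. EGR proteins are zinc finger factors that bind GC-rich sites.

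Values are FPKM, in which fragment numbers are divided by transcript length and by library size, which allow levels to be compared between genes. Differences are log2 changes of FPKM + 0.1 from 1 limma fit over the 12 libraries and the 11924 genes with at least 0.5 FPKM in at least 3 libraries, and all 10 members passed this filter. A gene was called where its change exceeded 2-fold with an adjusted p (Benjamini-Hochberg over the 11924 genes) below 0.05. With 3 libraries against 3, an exact permutation test of a single gene cannot give a two-sided p below 0.1, so p-values come from the limma fit alone. In bulk RNA, fewer cells with a transcript and less of it per cell cannot be told apart.

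The siRNA target was checked first. Ncoa4 was 6.22 ± 0.222 FPKM (SD, n = 3) in siControl and 0.871 ± 0.0929 FPKM (SD, n = 3) in siNCOA4, and 8.18 ± 0.600 FPKM (SD, n = 3) in siControl+DFO against 1.24 ± 0.363 FPKM (SD, n = 3) in siNCOA4+DFO, so 14% and 15.1% of the transcript remained. Of 12 neuron markers, 2 reached 1 FPKM in siControl, Tubb3 (7.77 FPKM) and Syn1 (5.52 FPKM), whereas Rbfox3 and Snap25, which define mature neurons, were listed at 0 in siControl. Each of the 12 was above 0 in at least 1 library of the series. Small RNA genes took 38.5% to 48.6% of the summed FPKM in the first 3 groups and 50.6% to 54.3% in siNCOA4+DFO. The files hold no read counts, and the relative depth read from the smallest steps in the values spanned 1.52 times, from 0.928 in siNCOA4+DFO replicate 3 to 1.41 in siNCOA4 replicate 3.

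RefSeq promoter entries (GRCm38.p6) were found for 7 of the 10 members, and the 250 bases before the transcription start are shown for 1 gene of each family that moved together under DFO, the regulated genes Jun, Fos and Egr2. Capitals mark matches to motifs of the factors known to act on such promoters, and positions count backwards from the start. In Jun they mark the AP-1/CRE form TGACATCA, 45 to 38 bases before the start. In Fos they mark the 6-base CRE core TGACGT at 66 to 61 bases and the TATA box TATAAA at 33 to 28 bases. Of the 5 Egr2 entries, the one shown has a CArG box, the element bound by serum response factor, at 72 to 63 bases, and the CRE core on the reverse strand at 56 to 51 bases. The Egr2 entry that starts at chr10:67535499, nearest the gene start given below, had no match to any motif searched.
Jun (chr4:95052223-95052472, - strand): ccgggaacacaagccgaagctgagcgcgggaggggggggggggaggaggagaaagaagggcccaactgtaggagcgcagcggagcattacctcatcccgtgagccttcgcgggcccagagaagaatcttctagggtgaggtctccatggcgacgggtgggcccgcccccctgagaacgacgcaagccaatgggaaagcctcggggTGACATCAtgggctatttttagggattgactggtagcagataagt
Fos (chr12:85473640-85473889, + strand): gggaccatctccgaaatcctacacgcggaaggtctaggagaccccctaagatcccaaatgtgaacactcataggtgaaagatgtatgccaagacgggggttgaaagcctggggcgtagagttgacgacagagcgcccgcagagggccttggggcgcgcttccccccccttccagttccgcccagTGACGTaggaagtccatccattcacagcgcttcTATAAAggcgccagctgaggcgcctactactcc
Egr2 (chr10:67537619-67537868, + strand): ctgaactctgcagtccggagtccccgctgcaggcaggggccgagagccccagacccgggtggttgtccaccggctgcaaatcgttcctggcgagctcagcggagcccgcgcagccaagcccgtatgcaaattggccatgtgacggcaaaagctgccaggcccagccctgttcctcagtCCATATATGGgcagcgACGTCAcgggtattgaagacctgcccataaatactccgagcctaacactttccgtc
All 32851 promoter entries were searched on both strands over 300 bases. A CArG box was found in 1.63% of them, TATAAA in 13.6%, TGANNTCA in 14.1% and TGACGT in 7.51%, and the last 2 forms, which overlap the full CRE, were added after the members' sequences had been seen. The AP-1 site TGANTCA (7.81% of entries) and the full CRE TGACGTCA (1.79%) matched no entry of the 7 members, and the EGR site GCGNGGGCG (5.55%) matched Fosl2 and Fosb. Jund held TGAAATCA, a form of TGANNTCA, 61 to 54 bases before the start of its entry. That start (chr8:70697739) lies upstream of the Jund gene position given below, which begins at chr8:70698949. These matches describe letters only.

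Gene positions are from GENCODE M21 (GRCm38). Fos is at chr12:85473890-85477273, Fosb at chr7:19302696-19310051, Fosl1 at chr19:5447547-5455946 and Fosl2 at chr5:32135801-32157842, each with 4 exons. Jun (chr4:95049034-95052222), Junb (chr8:84974484-84978718) and Jund (chr8:70698949-70700616) have 1 exon each. Exon numbers are those of 1 transcript per gene, which for Junb (1809 bases) is shorter than the interval given. Egr1 (chr18:34859823-34864984), Egr2 (chr10:67535475-67542188) and Egr3 (chr14:70077203-70082614) have 2 exons each. Exons of other genes on the opposite strand overlap 4 members. Of the 75-base windows of the transcript, 50.2% are shared with Ccdc85b in Fosl1, 45.9% with Gm11175 in Jund, 5.07% with Junos in Jun and 4.74% with Prdx2 in Junb. The library kit is stranded, but the strand setting of the counting was not given in the sources used here, so these 4 values may hold reads of the partner. Ccdc85b was 9.77 ± 1.2 FPKM in siControl and 5.08 ± 0.271 FPKM in siControl+DFO (SD, n = 3 each) and Prdx2 was 128 ± 11.9 and 72.4 ± 9.98 FPKM, so both were lower where Fosl1 and Junb were higher. Gm11175 and Junos were not among the genes listed, so no such comparison was possible for Jund and Jun. The family sums, shares and ratios below carry the same limit.

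The first comparison asked what iron restriction does in cells that have NCOA4. All 10 members rose in siControl+DFO over siControl (limma, adjusted p between 2.94e-09 for Jun and 0.000593 for Egr3), where 11.1% of all genes tested were called higher and 7.76% lower. In all 10 every siControl+DFO library was above every siControl library, as in 31.1% of all genes tested. The median log2 change of the members was 3.87, against -0.01 over all genes tested. The responses were of unequal size, from 5.65 on the log2 scale for Fos to 1.17 for Fosl2.

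Among the Fos family, the classical immediate-early gene Fos was nearly silent without DFO. Its FPKM was 0.671, 0.267 and 0.860 in the siControl libraries and 32.1, 33.5 and 31.6 in the siControl+DFO libraries. The mean rose 54.1 times (log2 change 5.65 ± 0.59, SE), which gave Fos rank 22 of 11924 genes by the size of the rise. Fosb, whose splice form ΔFosB accumulates in neurons under repeated stimulation, was lower still, at 0.180, 0.0718 and 0.154 FPKM, and reached 5.26, 6.49 and 5.28 FPKM with DFO. Its log2 change of 4.64 ± 0.47 (SE) corresponds to 25-fold on the scale of FPKM + 0.1, whereas the ratio of the mean FPKM was 42.0. The 3 DFO libraries of both genes were close to each other and all above the siControl libraries.

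Fosl1 and Fosl2 encode FRA1 and FRA2, Fos proteins that lack the strong activation domain of FOS. Fosl1 was 9.22, 9.51 and 8.60 FPKM in siControl and 265, 295 and 265 FPKM in siControl+DFO, a log2 change of 4.90 ± 0.21 (SE) and the largest rise in FPKM of the Fos family. Fosl2 was 23.3, 20.9 and 19.0 FPKM in siControl and 46.4, 50.04 and 45.4 FPKM with DFO, a log2 change of only 1.17 ± 0.12 (SE). The order of the 2 genes was thus turned round: Fosl2 was higher than Fosl1 in every siControl library and lower in every siControl+DFO library.

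In the Jun family, Jun and Jund started at the same level and parted under DFO. Jun, the main AP-1 activator, was 31.8, 24.1 and 29.5 FPKM in siControl and 642, 755 and 629 FPKM in siControl+DFO (log2 change 4.57 ± 0.17, SE), which moved it from rank 2766 to rank 106 of 11924 genes by mean FPKM. Junb, a weaker activator that can restrain Jun, rose from 9.25, 7.83 and 10.1 FPKM to 128, 147 and 119 FPKM (log2 change 3.85 ± 0.23, SE). Jund, a broadly expressed member with little response to growth signals, was 31.6, 22.9 and 27.3 FPKM and then 61.1, 66.5 and 58.1 FPKM (log2 change 1.19 ± 0.15, SE). Fosl2 and Jund, which had the highest siControl levels of their families beside Jun, had the smallest changes of the 10 genes.

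The EGR genes differed in level far more than in direction. Egr1 was 8.49, 6.85 and 8.40 FPKM in siControl and 120, 125 and 109 FPKM with DFO (log2 change 3.89 ± 0.19, SE). Egr2, known from hindbrain patterning and myelination as Krox20, was 0.348, 0.554 and 0.396 FPKM and then 5.68, 5.95 and 5.02 FPKM (log2 change 3.42 ± 0.40, SE). Egr3 was 1.23, 0.629 and 0.535 FPKM and then 2.62, 4.23 and 3.65 FPKM, a log2 change of 2.06 ± 0.38 (SE). The siControl levels of Egr2, Egr3, Fos and Fosb were at most 1.23 FPKM in any library, so their changes rest on low baselines.

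**Figure D1:**
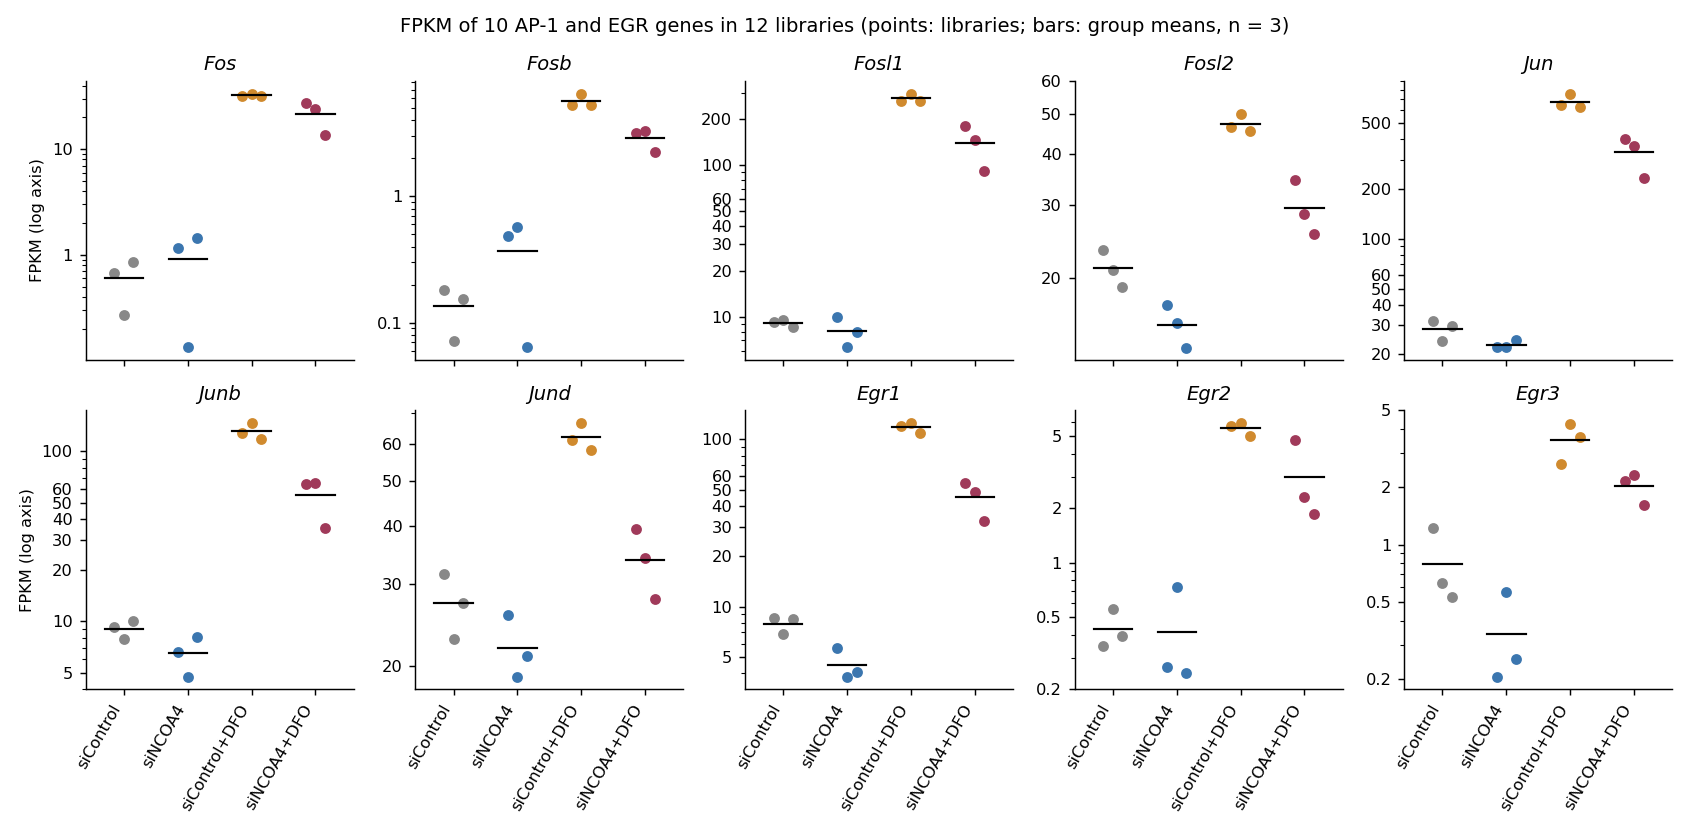
FPKM (log axis, a separate range in each panel) of the 10 members in the 12 libraries, with points for libraries and bars for group means (n = 3). Every siControl+DFO library lies above every siControl and siNCOA4 library in all 10 panels, and every siNCOA4+DFO library lies below every siControl+DFO library.

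Since FPKM is scaled by transcript length, the levels were also added within families and set side by side, as a description with no test. The summed Fos family level was 30.9 ± 2.40 FPKM in siControl and 360 ± 21.7 FPKM in siControl+DFO, and the Jun family level was 64.7 ± 9.11 and 868 ± 87.6 FPKM (SD, n = 3 each). Jun family FPKM exceeded Fos family FPKM by a similar factor in all groups, with group means of the ratio between 2.09 and 2.41. The make-up of each family changed more than this ratio did. Fosl2 made up 68.1 ± 1.74% of the Fos family in siControl and 13.1 ± 0.173% in siControl+DFO, while Fosl1 went from 29.5 ± 1.71% to 76.3 ± 0.344% (SD, n = 3). Jun went from 43.9 ± 0.158% to 77.7 ± 0.477% of the Jun family and Jund from 42.0 ± 1.34% to 7.15 ± 0.250%, while Junb stayed between 12.7% and 15.4% in the 6 libraries. The ratio of Fosl1 to Fosl2 was 0.434 ± 0.0338 and 5.81 ± 0.102, and that of Jun to Jund 1.05 ± 0.0366 and 10.9 ± 0.431, in siControl and siControl+DFO (SD, n = 3 each).

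**Figure D2:**
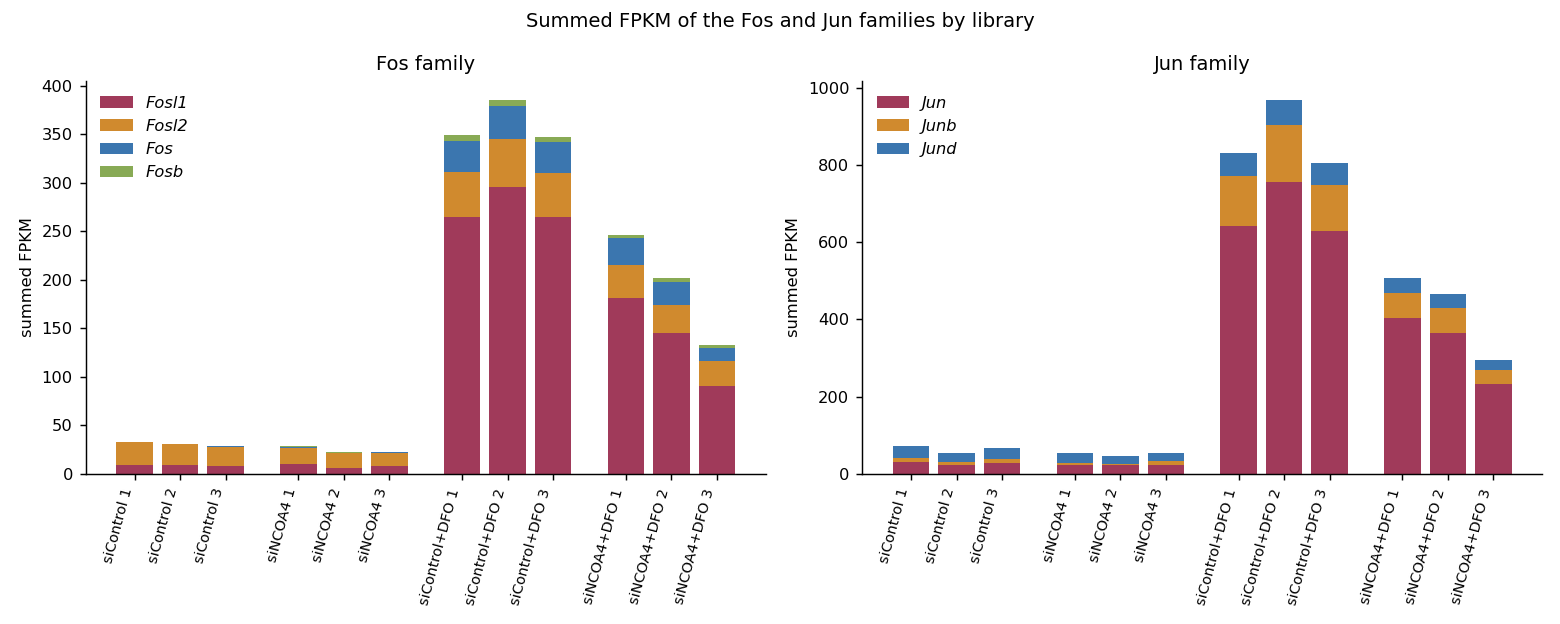
Summed FPKM (linear axis from 0) of the Fos family and the Jun family in each library, split by gene. Fosl2 is the larger part of the Fos bars without DFO and Fosl1 with DFO, and Jun makes up most of the Jun bars with DFO.

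By level, the siControl order was Jun, Jund, Fosl2, Fosl1, Junb, Egr1, Egr3, Fos, Egr2 and Fosb, and the library ranges of neighbours overlapped except between Fosl2 and Fosl1, Egr1 and Egr3, and Egr2 and Fosb. In siControl+DFO the order was Jun, Fosl1, Junb, Egr1, Jund, Fosl2, Fos, Fosb, Egr2 and Egr3, and among neighbours only Junb and Egr1, and Fosb and Egr2, overlapped. In siNCOA4+DFO the first 7 places held the same genes in the same order, at lower levels.

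At normal iron, 8 of 10 members had negative log2 changes after NCOA4 depletion, with a median of -0.31, against 0.005 over all genes tested. By limma, 0 of 10 were called in siNCOA4 against siControl, where 0.973% of all genes tested were called lower and 0.805% higher. At an unadjusted p below 0.05, 3 members were lower, Fosl2, Egr1 and Egr3, but the share of all genes at that limit was not counted. Of these 3, 2 passed at an adjusted p below 0.05 without the fold limit, where 7.21% of all genes were lower. Egr1 was 5.64, 3.80 and 4.04 FPKM in siNCOA4, each below the lowest siControl library (log2 change -0.82 ± 0.19, SE, adjusted p = 0.0157). Fosl2 was 17.1, 15.5 and 13.48 FPKM, also with no overlap (log2 change -0.45 ± 0.12, SE, adjusted p = 0.0339), and 17.6% of all genes tested had every siNCOA4 library below every siControl library. Egr3 was 0.205, 0.567 and 0.253 FPKM, which overlapped siControl, with the largest change of the 10 genes in the main fit (log2 change -1.03 ± 0.37, SE, 95% confidence interval -1.85 to -0.21, adjusted p = 0.1003). Its estimate ran from -1.24 to -0.41 over the alternatives that kept all libraries. Jun was 22.0, 22.0 and 24.5 FPKM and Fosl1 9.94, 6.30 and 7.89 FPKM, both overlapping siControl, with 95% confidence intervals of the log2 change from -0.69 to 0.07 and from -0.66 to 0.26. The adjusted p of Egr1 rose above 0.05 without siControl replicate 1 (0.0546), siNCOA4 replicate 2 (0.0685) or siNCOA4 replicate 3 (0.0587). That of Fosl2 did so without each of these libraries or siControl replicate 2 (0.0799 to 0.126), with no filter (0.0539), without a trend (0.0604) and after rescaling without small RNA genes (0.0763).

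The 2 least expressed Fos genes were spread widely in siNCOA4. Fos was 1.15, 0.133 and 1.43 FPKM and Fosb 0.482, 0.571 and 0.0638 FPKM, and neither passed the test against siControl (log2 changes 0.24 ± 0.59 and 0.80 ± 0.47, SE). Without siNCOA4 replicate 3, Fosb was called higher (log2 change 1.44, adjusted p = 0.0211), a call that rests on levels near 0.5 FPKM. Egr2 was 0.266, 0.734 and 0.247 FPKM, Junb 6.64, 4.73 and 8.08 FPKM and Jund 25.7, 18.9 and 20.9 FPKM, each overlapping its siControl range.

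The members were also higher with DFO in NCOA4-depleted cells. In siNCOA4+DFO against siNCOA4, 8 of 10 were called higher, where 7.59% of all genes tested were, and the others, Fosl2 (log2 change 0.93 ± 0.12, SE) and Jund (0.62 ± 0.15, SE), had adjusted p-values of 7.82e-05 and 0.00532 with changes under 2-fold. All 10 had no overlap, as had 27.6% of all genes in that direction. The log2 changes of the called members ran from 2.33 for Egr3 to 4.77 for Fos. Against siControl, siNCOA4+DFO had the same number of called members, 8, where 9.24% of all genes were called higher. Fosl2 was 0.48 ± 0.12 (SE, log2) above siControl there and Jund 0.31 ± 0.15 (SE, log2), and 9 members, all but Jund, lay above siControl in every library, as did 28.5% of all genes. Egr3 was no longer called against siControl with a pseudocount of 1 (log2 change 0.76) and without siControl replicate 3 (log2 change 1.09, adjusted p = 0.0510).

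The comparison of siNCOA4+DFO with siControl+DFO asked how NCOA4 depletion alters the state under iron restriction. Every siNCOA4+DFO library was lower than every siControl+DFO library for all 10 members, an ordering that 20.1% of all genes tested showed. The median log2 change was -0.97 for the members and -0.01 for all genes tested. Of the 10, 4 were called lower (Egr1, Junb, Jun and Fosl1), where 1.01% of all genes were, and Fosl2 and Jund brought the number at an adjusted p below 0.05 to 6, where 10.2% were.

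Egr1 had the strongest reduction, from 120, 125 and 109 FPKM to 54.9, 48.2 and 32.6 FPKM (log2 change -1.41 ± 0.19, SE, adjusted p = 0.000737). Junb was 64.6, 65.3 and 35.6 FPKM in siNCOA4+DFO, all below the lowest siControl+DFO library (log2 change -1.30 ± 0.23, SE, adjusted p = 0.00354). Jun was 404, 365 and 232 FPKM (log2 change -1.05 ± 0.17, SE) and Fosl1 181, 145 and 91.1 FPKM (log2 change -1.04 ± 0.21, SE), with means 50.6% and 49.4% below those of siControl+DFO. These 2 changes lie next to the 2-fold limit. Jund (39.4, 34.1 and 27.9 FPKM, log2 change -0.885 ± 0.151, SE) and Fosl2 (34.6, 28.6 and 25.5 FPKM, log2 change -0.69 ± 0.12, SE) were lower by less than 2-fold, with adjusted p-values of 0.00270 and 0.00363.

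The other 4 members did not pass the test. Fos was 27.4, 24.0 and 13.6 FPKM in siNCOA4+DFO (log2 change -0.64, 95% confidence interval -1.93 to 0.65) and Fosb 3.16, 3.30 and 2.23 FPKM (log2 change -0.96, interval -1.98 to 0.06). Egr2 was 4.8, 2.32 and 1.87 FPKM (log2 change -0.98, interval -1.85 to -0.11, adjusted p = 0.113) and Egr3 2.13, 2.31 and 1.61 FPKM (log2 change -0.76, interval -1.57 to 0.06). Fitted on the compared groups alone, Fosb had an adjusted p of 0.0250 and Fos of 0.111, and with a pseudocount of 1 Fosb had an adjusted p of 0.0105 and Egr2 of 0.0385. Fosl1 made up 71.5 ± 2.45% of the Fos family in siNCOA4+DFO, below its share in every siControl+DFO library, and Fosl2 15.9 ± 2.97%, above it (SD, n = 3). The ratio of Fosl1 to Fosl2 was 4.63 ± 0.919, against 5.81 ± 0.102 in siControl+DFO. Jun made up 78.9 ± 0.535% of the Jun family, and Junb 12.9 ± 1.02%, below its share in every siControl+DFO library. These shares were not tested.

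The small RNA share was higher in siNCOA4+DFO than in siControl+DFO. Replicate 3 of siNCOA4+DFO was the lowest library of the group for all 10 members and the shallowest of the 12. Ncoa4 was 1.57 FPKM in this library, above 0.850 and 1.29 FPKM in replicates 1 and 2, and a link to the members was not tested. Without that library, the called members numbered 2, Junb and Egr1, as they did without siControl+DFO replicate 2, after quantile scaling and after rescaling FPKM without small RNA genes, a step that moved the median of all genes to 0.12. Without siNCOA4+DFO replicate 1, they numbered 6, with Jund and Egr2 added. All 10 log2 changes stayed negative in every fit. Summed FPKM of 12 markers of other cell types was 4.33 to 4.56 in siNCOA4+DFO and 2.40 to 3.10 in siControl+DFO, most of it from Aldh1l1 (2.50 ± 0.164 FPKM in siNCOA4+DFO, SD, n = 3), with Epcam at 0 throughout. Summed FPKM of the 12 neuron markers was 11.2 to 14.1 and 17.7 to 18.8 in the same groups, and the part of these in the lower AP-1 levels was not tested.

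**Figure D3:**
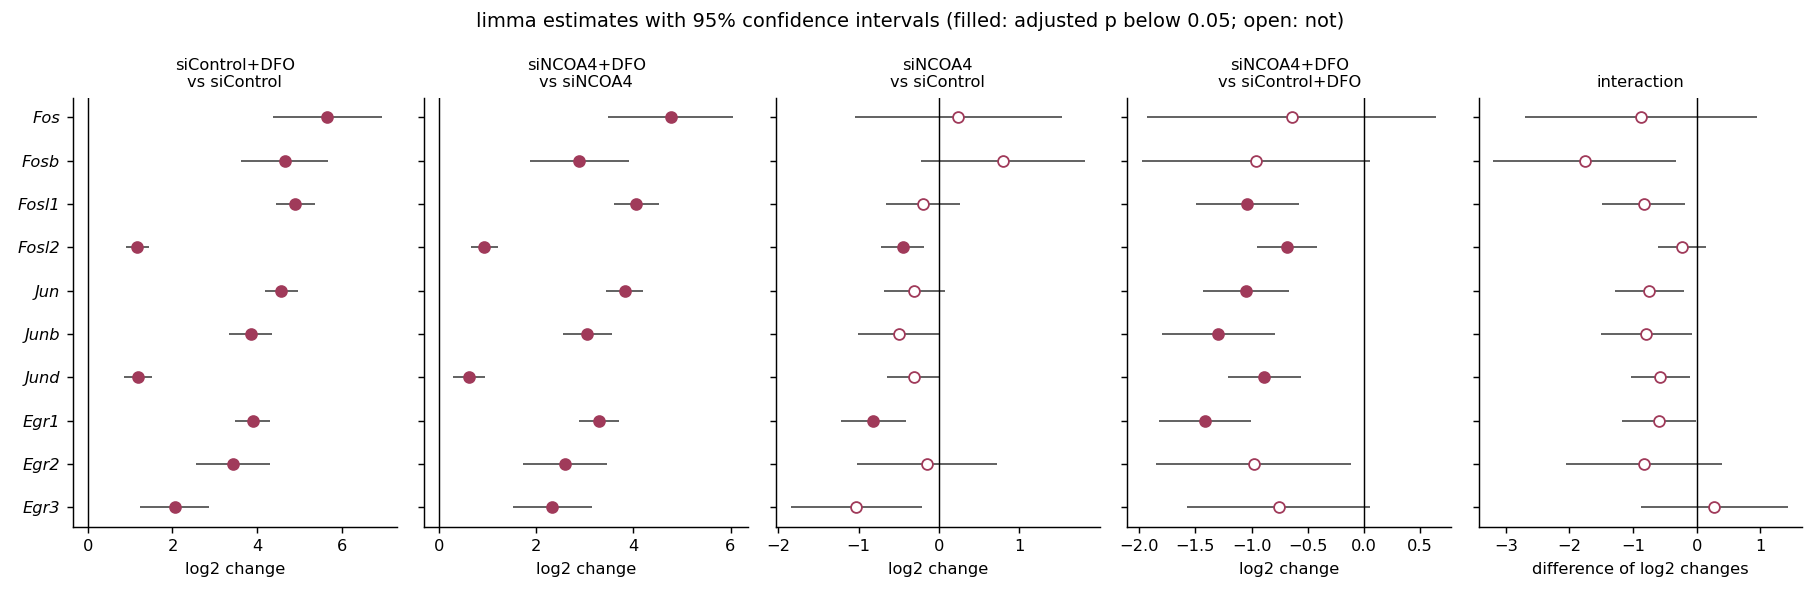
Log2 changes of FPKM + 0.1 from limma (points) with 95% confidence intervals (lines) for the 10 members in 4 comparisons and for the difference of the DFO effects (interaction), each on its own axis. Filled points have an adjusted p below 0.05, which holds for all 10 members in both DFO comparisons, for 2 in siNCOA4 against siControl, for 6 in siNCOA4+DFO against siControl+DFO and for 0 in the interaction.

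Whether the DFO effect itself differed with NCOA4 depletion was tested by the interaction, the DFO change in siNCOA4 cells minus that in siControl cells. By limma, 0 of 10 members passed at an adjusted p below 0.05, where 1.43% of all genes had a negative and 0.671% a positive interaction. At an unadjusted p below 0.05, 6 members passed, all with negative estimates (Fosb, Fosl1, Jun, Junb, Jund and Egr1). The share of all genes at that unadjusted limit was not counted, so the 6 are not read as particular to the members. The interaction of Jun was -0.74 ± 0.25 (SE, log2, adjusted p = 0.133), that of Fosl1 -0.84 ± 0.30 (adjusted p = 0.159) and that of Fosb -1.76 ± 0.66 (adjusted p = 0.183). The interaction of Egr1 was -0.60 ± 0.27 (SE), beside log2 changes of -1.41 with DFO and -0.82 at normal iron. Only Egr3 had a positive estimate (0.28 ± 0.53, SE), which turned negative with a pseudocount of 1 and without siControl replicate 1.

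Genes around the members were counted from lists of known partners, regulators and targets. Among 18 tested basic leucine zipper partners of AP-1, 8 were called higher with DFO and 0 lower, beside 11.1% and 7.76% of all genes. The list median log2 change was 0.90. Maff (log2 change 4.46 ± 0.21, SE) and Mafk (3.06 ± 0.16, SE), small Maf proteins that dimerise with other zipper factors, and Ddit3 (3.05 ± 0.11, SE), which encodes the stress factor CHOP, rose. Atf3, a stress-induced partner of Jun, had 0 FPKM in each siControl library and 2.46 ± 0.974 FPKM in siControl+DFO (SD, n = 3). Maff was the 1 partner called lower in siNCOA4+DFO than in siControl+DFO, where 1.01% of all genes were. Its level was 30.6 ± 8.33 FPKM in siNCOA4+DFO and 64.3 ± 10.4 FPKM in siControl+DFO (SD, n = 3 each). At an adjusted p below 0.05 alone, 3 of the 18 partners were lower, beside 10.2% of all genes, and 1 was higher.

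Of the 27 tested kinases and factors upstream of the members, 4 were called higher and 2 lower with DFO, beside 11.1% and 7.76% of all genes, and the list median was -0.13. At an adjusted p below 0.05 alone, 6 were higher and 8 lower, where 6365 of the 11924 genes tested passed in either direction. Map3k8 (1.61 ± 0.26, SE), which encodes the kinase TPL2, Map2k1 (1.22 ± 0.08), which encodes MEK1, and Rps6ka2 (1.2 ± 0.13), a kinase of the RSK family, rose on the log2 scale, and Map2k6 (-1.66 ± 0.18), a p38 activator, fell. By contrast, 9 of 14 genes of MAP kinase feedback rose and 0 fell, beside the same 11.1% and 7.76%, with a median of 2.03. They included Dusp1 (3.48 ± 0.23, SE) and Dusp4 (3.29 ± 0.13), nuclear phosphatases of MAP kinases, Errfi1 (2.69 ± 0.14), an inhibitor of the EGF receptor, and Spry4 (2.88 ± 0.36), a Sprouty inhibitor of Ras signalling. Of these 14, 3 were called lower in siNCOA4+DFO than in siControl+DFO (Dusp1, Dusp5 and Errfi1), beside 1.01% of all genes. Lower at an adjusted p below 0.05 alone were 9, beside 10.2% of all genes. Dusp4 was also lower at normal iron, at 2.63 ± 0.198 FPKM in siNCOA4 and 5.44 ± 0.900 FPKM in siControl (SD, n = 3 each, log2 change -1.01 ± 0.13, SE, adjusted p = 0.000428). Its change lies next to the 2-fold limit and was no longer called in 5 alternatives. Of the 27 upstream genes, 0 were called in siNCOA4 against siControl, but 5 were lower at an adjusted p below 0.05, beside 7.21% of all genes. In siNCOA4+DFO against siControl+DFO, 0 of the 27 were called. At an adjusted p below 0.05 alone, 5 were lower there, beside 10.2% of all genes, and 3 were higher.

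Of 33 other immediate-early genes tested, 24 rose with DFO and 0 fell, beside 11.1% and 7.76% of all genes. The list median was 2.46. Btg2, an antiproliferative gene, was 1.88 ± 0.57 FPKM in siControl and 161 ± 1.94 FPKM in siControl+DFO, Gadd45a, a growth arrest and DNA damage gene, 9.25 ± 1.47 and 143 ± 14.1 FPKM, Ier3 12.7 ± 4.04 and 236 ± 17.3 FPKM, and Csrnp1 1.41 ± 0.327 and 31.8 ± 4.43 FPKM (SD, n = 3 each). Arc, a neuronal activity gene, stayed below the filter, at 0.0672 FPKM in siControl and 0.0353 FPKM with DFO. In siNCOA4+DFO against siControl+DFO, 8 of the 33 were called lower, beside 1.01% of all genes, and 0 higher. The 8 were Nr4a3, Klf2, Zfp36, Cyr61, Gadd45b, Gadd45g, Csrnp1 and Phlda1. Lower at an adjusted p below 0.05 alone were 24, beside 10.2% of all genes, and the list median was -0.84. At normal iron, Ier5l (log2 change -1.14 ± 0.21, SE) and Ctgf (-1.01 ± 0.12) were called lower in siNCOA4 than in siControl, and Btg2 (1.03 ± 0.21) higher. Of all genes, 0.973% were called lower there and 0.805% higher. Ctgf and Btg2 were no longer called in 5 alternatives each, and Ier5l stayed called in all.

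Of 22 known AP-1 targets tested, 17 rose with DFO by more than 2-fold and 0 fell by as much. Of all genes, 11.1% and 7.76% did so, and the list median log2 change was 2.56. Spp1, named after its value was seen, was lower by less than 2-fold (log2 change -0.72 ± 0.11, SE, adjusted p = 0.000136). Sprr1a was 0.290 ± 0.503 FPKM in siControl and 43.4 ± 5.16 FPKM in siControl+DFO, Krt16 was listed at 0 in siControl and was 12.3 ± 3.68 FPKM, Il6 0.116 ± 0.200 and 9.93 ± 2.88 FPKM, and Areg, a ligand of the EGF receptor, 0.186 ± 0.164 and 10.5 ± 0.969 FPKM (SD, n = 3 each), with at least 1 siControl library at 0 for each. The stromelysin genes Mmp3 and Mmp10 were listed at 0 in all 12 libraries, and Mmp13 and Mmp9 stayed below the filter. Hbegf, a growth factor, and Krt16, a keratin, were among the targets called lower in siNCOA4+DFO than in siControl+DFO. Of the 22, 10 were lower there at an adjusted p below 0.05 alone, beside 10.2% of all genes. At normal iron, 4 AP-1 targets were called higher in siNCOA4 than in siControl, Ccl2 (log2 change 1.2 ± 0.18, SE), Plau (1.15 ± 0.27), Ereg (1.15 ± 0.25) and Il6, although no Fos or Jun gene was. Of all genes tested, 0.805% were called higher there. Il6, Ereg and Plau were no longer called in 9, 5 and 3 alternatives, with adjusted p by limma up to 0.224, 0.0745 and 0.0646, and Ccl2 stayed called in all. Of 9 EGR targets tested, 2 rose with DFO and 2 fell, beside 11.1% and 7.76% of all genes, and the median was -0.04. Pdgfa (log2 change 1.79 ± 0.17, SE) and Ptp4a1 (1.10 ± 0.27) rose, and Thbs1 (-1.57 ± 0.18) and F3 (-1.02 ± 0.15) fell. The EGR corepressor genes Nab1 and Nab2 were not called in any comparison. Both were lower with DFO at an adjusted p below 0.05, a limit that 6365 of 11924 genes passed in either direction. Egr4 and Wt1 were listed at 0 in all 12 libraries.

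**Figure D4:**
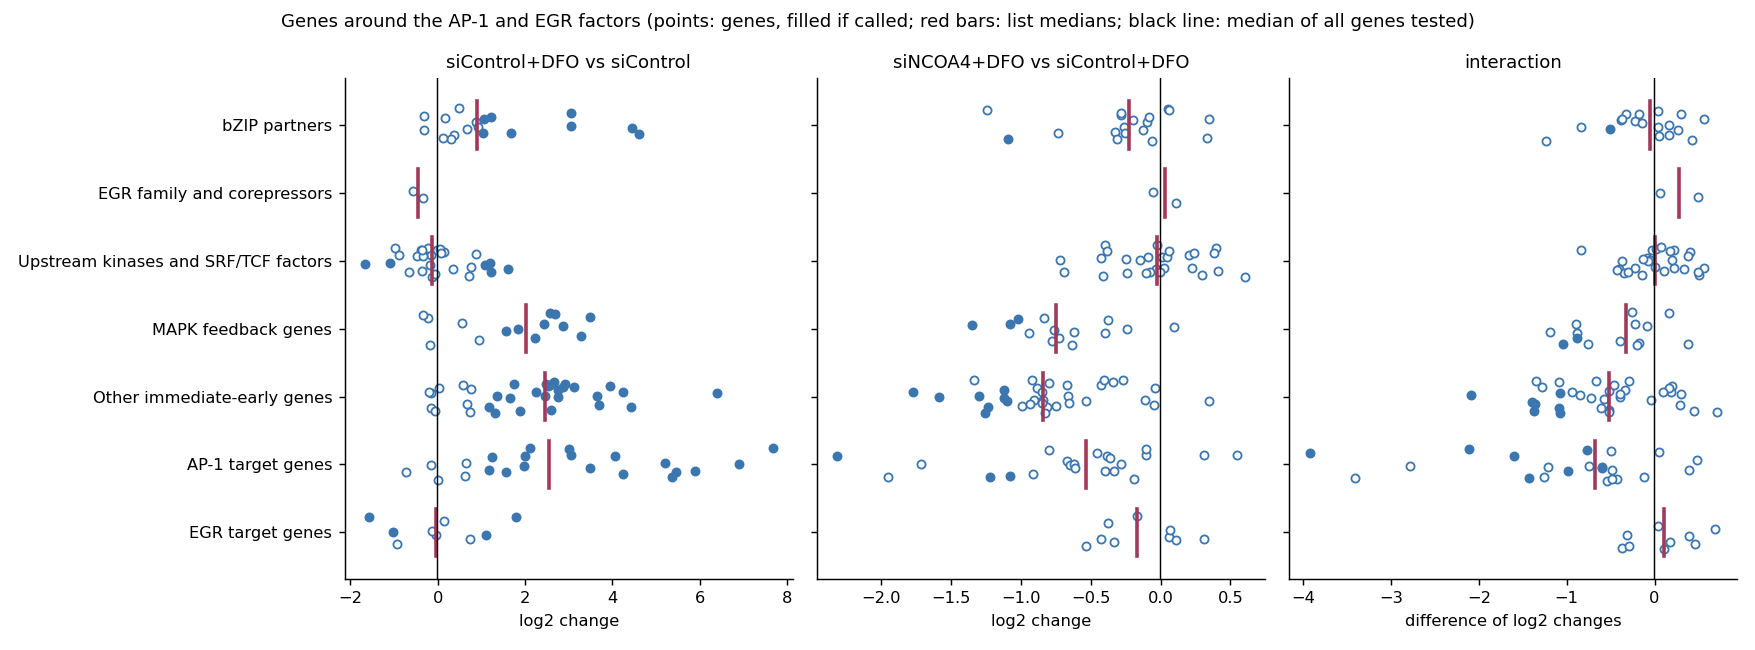
Log2 changes (x axis) of the tested genes of 7 lists for siControl+DFO against siControl and siNCOA4+DFO against siControl+DFO, and the interaction as a difference of log2 changes. Points are genes, filled where called, red bars are list medians and the black line is the median of all genes tested. The medians of MAP kinase feedback, other immediate-early and AP-1 target genes lie near 2 or above with DFO and below 0 in the other panels, while those of the upstream kinases and EGR targets lie near 0.

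Over the 12 libraries, the genes whose log2 values were most like those of Jun were Epha2 (Pearson's r = 0.999), Enc1 (0.998) and Plk2 (0.997). For Fosl1 they were Mafk, Maff and Enc1 (0.996 to 0.997) and for Egr1 they were Nfxl1, Ndrg1 and Myc (0.996 to 0.998). These values describe a likeness over libraries that share 4 group means, with and without DFO. Epha2 was 6.55 FPKM in siControl, 112 FPKM in siControl+DFO and 52.7 FPKM in siNCOA4+DFO, and Myc was 17.9, 222 and 90.4 FPKM in the same groups.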

How the data were processed

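The authors deposited 1 table per library with FPKM values per gene, and no read counts. The submitters' processing notes name Trimmomatic 0.33, FastQC, HISAT2 2.1.0, featureCounts, edgeR and the mouse build mm10. The library kit (SMARTer Pico) keeps the strand. The tool that wrote the FPKM, the annotation and the strand setting were not given in the sources used here. Entries with a repeated gene name (4 of 24347) were dropped. Since FPKM are not counts, limma 3.58.1 (R 4.3.3) with a mean-variance trend was fitted to log2(FPKM + 0.1) over all 4 groups, with 8 residual degrees of freedom, on 11924 genes. The fit was tested on simulated data. Thresholds were a change above 2-fold and an adjusted p below 0.05, and an adjusted p below 0.05 for the interaction. Depth is unknown beyond relative values from genes under 0.3 FPKM, so no counting intervals are given, and small FPKM are the least precise. Alternatives were other pseudocounts, filters, scalings, a replicate block, other eBayes settings and leaving out each library. Members and lists were chosen with earlier results of these data known. Named list genes were the 4 called genes of each list with the largest DFO change at 1 FPKM or more in siControl or siControl+DFO, and those called in siNCOA4 against siControl or siNCOA4+DFO against siControl+DFO. Mmp genes, Arc, Spp1, Nab1, Nab2, Egr4 and Wt1 were named after their values were seen. Values of 1 listed gene that met the naming rule are not reported here.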

Additional observations from a re-analysis of the deposited data

Results flagged for a closer look

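The DFO effect differed between cells with and without Ncoa4 siRNA for 17 listed genes, by the interaction test of limma. All 17 estimates were negative, that is, a lower DFO change in NCOA4-depleted cells. The limit was an adjusted p below 0.05 over all genes tested, where 1.43% had a negative and 0.671% a positive interaction. Values are differences of log2 changes. Among 18 zipper partners tested this was Nfe2l2 (-0.51), which encodes the antioxidant factor NRF2. Among 14 feedback genes tested these were Dusp10 (-0.88) and Errfi1 (-1.04). The DFO log2 change of Dusp10 was 0.94 in siControl cells and 0.056 in NCOA4-depleted cells (limma, adjusted p = 0.702 for the latter). Among 33 other immediate-early genes tested these were Ier5 (-1.08), Klf10 (-1.07), Btg2 (-1.38), Cyr61 (-1.39), Gadd45a (-1.09), Gadd45b (-1.36) and Gadd45g (-2.09). Among 22 AP-1 targets tested these were Ccnd1 (-0.98), Il6 (-3.93), Lif (-1.43), Ccl2 (-2.12), Hbegf (-1.60), Cd44 (-0.59) and Ptgs2 (-0.77). Of the 27 upstream genes and 9 EGR targets tested, 0 passed. For Gadd45g, the levels were 14.2 ± 1.5 FPKM in siControl, 25.3 ± 1.44 in siNCOA4, 105 ± 16.3 in siControl+DFO and 45.0 ± 14 in siNCOA4+DFO (SD, n = 3 each), so the gene was higher without and lower with DFO in depleted cells. For Ccl2, they were 12.8 ± 1.76, 29.6 ± 1.69, 145 ± 28.3 and 77.9 ± 20.3 FPKM in the same order. Il6 was at 0 in 2 of 3 siControl libraries. Of the 17, between 8 and 16 still passed when 1 library was left out, 11 after quantile scaling and 10 with eBayes without a trend. Nfe2l2 no longer passed in 15 alternatives, Ier5 and Il6 in 14 each and Cd44 in 12. Dusp10, Klf10, Cyr61, Gadd45g, Ccnd1, Ccl2, Hbegf and Ptgs2 passed in every one.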

How the results depend on the processing

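All 10 members rose with DFO in siControl cells in every alternative. In siNCOA4+DFO against siControl+DFO, the 4 called members became 2 with quantile scaling and 2 after rescaling without small RNA genes, and 2 to 6 when 1 library was left out; Jun and Fosl1 then fell short of 2-fold, at log2 changes between -0.98 and -0.76. In siNCOA4 against siControl, the number called was 2 with adjusted p below 0.05 alone and 0 to 1 when 1 library was left out, and for the interaction 0 to 1, with Fosb the gene called (interaction -2.40, adjusted p = 0.0326, without siNCOA4 replicate 3). Signs turned only for small estimates. Fos in siNCOA4 against siControl was -0.065 with quantile scaling and -0.26 to 1.10 with 1 library left out, and Egr2 was -0.56 to 0.072. The interaction of Egr3 was -0.16 with a pseudocount of 1 and -0.046 to 0.62 with 1 library left out, and that of Ncoa4 -0.10, -0.12 with quantile scaling and -0.14 to 0.27. Replicate numbers did not pair the libraries: deviations from group means correlated between -0.13 and 0.12 at the same number, and 2 of 12 libraries correlated best with their own number. A replicate block left the members' counts at 0, 10, 8, 8, 4 and 0 in the 6 tests and moved the calls over all genes from 249 to 239 in siNCOA4+DFO against siControl+DFO and from 250 to 171 for the interaction. The fits of single list genes were added after seeing the data. Without counts, differences near 1 FPKM or less could not be given a counting error.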
